A study of Mus musculus with 8 samples.

Results

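The H3K36me3 peaks described here lay in the open stretches between genes, more than 5 kb from every gene of any type in the GENCODE M21 annotation of the mouse genome (mm10). Peaks on chromosomes 1 to 19 that met this distance in any of 4 peak lists were collected, and overlapping ones were merged. This gave 917 far regions, set against 74258 merged regions when all peaks of the 4 lists were treated the same way. Another 5285 merged regions lay outside genes but within 5 kb of one, and 70608 touched a gene, each kind being merged on its own, so that these numbers do not add up to the total. The members were chosen by the deposited peak calls and their positions, so presence in at least 1 list and distance from genes describe the selection.

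The lists came from mouse embryonic fibroblasts (MEFs) of an E13.5 embryo, labelled as a single clone, collected 72 h after transfer to iPSC medium. In such i4F cells doxycycline switches on the reprogramming factors Oct4, Sox2, Klf4 and c-Myc (OSKM). The 4 conditions were MEF (no doxycycline, no added vitamin B12), MEF B12 (2 µM vitamin B12), OSKM (1 µg/mL doxycycline) and OSKM B12 (both additions), all of them in the same medium. Each condition had 1 H3K36me3 ChIP library and 1 input library, so differences between conditions stand without replicates and are given without p-values. Percentages carry exact 95% binomial intervals that cover counting error only and treat regions as independent, although neighbouring regions share a locus. The depth was 29046913 to 33399267 H3K36me3 tags per library.

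H3K36me3 is laid down by SETD2, a methyltransferase that rides on elongating RNA polymerase II. The mark therefore fills the bodies of transcribed genes, is strongest towards their 3′ ends, and can run on past the annotated end until the polymerase leaves the template. It is read by DNA methyltransferases and other proteins that keep transcription from starting inside genes.

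Windows of 150 bases from the middle of 6 far regions are shown to give the kind of sequence these regions hold. They are the 3 strongest regions whose sequence is reported, the 2 regions of all 4 lists lying farthest from a gene, and the strongest region held by the OSKM list alone whose input level was at most 2 times the lowest in that list. They were read 5′ to 3′ from the plus strand of GRCm38.p6, whose coordinates are those of mm10, and capitals mark CG dinucleotides.
Downstream of Zfp263, chr16:3758195-3758344: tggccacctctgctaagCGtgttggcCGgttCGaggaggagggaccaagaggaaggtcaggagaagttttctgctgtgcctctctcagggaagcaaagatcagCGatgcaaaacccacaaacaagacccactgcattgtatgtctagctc
Downstream of Dyrk1b, chr7:28193542-28193691: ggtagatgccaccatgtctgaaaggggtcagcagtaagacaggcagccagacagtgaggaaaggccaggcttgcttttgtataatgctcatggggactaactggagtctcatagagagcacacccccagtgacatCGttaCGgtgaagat
Upstream of Gm27019, chr6:31070119-31070268: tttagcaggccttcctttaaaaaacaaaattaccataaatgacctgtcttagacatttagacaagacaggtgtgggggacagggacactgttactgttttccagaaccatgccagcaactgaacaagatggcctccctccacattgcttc
Farthest, nearest to Gm5165, chr17:17205292-17205441: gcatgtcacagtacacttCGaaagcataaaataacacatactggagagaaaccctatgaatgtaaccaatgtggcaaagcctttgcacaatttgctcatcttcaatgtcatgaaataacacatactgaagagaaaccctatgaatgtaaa
Next farthest, nearest to Pla2g10os, chr16:13759884-13760033: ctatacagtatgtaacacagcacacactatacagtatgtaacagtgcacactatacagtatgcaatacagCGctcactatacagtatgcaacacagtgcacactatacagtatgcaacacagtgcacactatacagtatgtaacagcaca
OSKM list alone, nearest to Gm14371, chr2:173853052-173853201: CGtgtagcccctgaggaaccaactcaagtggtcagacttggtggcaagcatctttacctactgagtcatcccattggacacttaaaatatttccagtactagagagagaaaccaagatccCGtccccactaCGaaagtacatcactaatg

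The windows held 0 to 4 CG dinucleotides each, and their G+C content was between 36.7% and 53.3%. The windows beside Gm5165 and Pla2g10os differed from the rest in being internally repetitive. Beside Pla2g10os, the run ctatacagtatg occurred 6 times within 150 bases, none of which was soft-masked as a repeat in the assembly. Beside Gm5165, where 100 of the 150 bases were soft-masked, aaaccctatgaa occurred 2 times. In the other 4 windows no run of 12 bases was repeated.

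Far regions were few and mostly short. The far peaks made up 0.504% of the MEF list (327 of 64885 peaks), 0.422% of MEF B12 (273 of 64734), 0.562% of OSKM (362 of 64364) and 0.471% of OSKM B12 (317 of 67234). The merged regions had a median length of 400 bases, from 288 to 5819, and summed to 532 kb. They were also weak: the median scaled pileup of far peaks, in fragments per 1000000 H3K36me3 tags, was 0.358 for MEF, 0.387 for MEF B12, 0.334 for OSKM and 0.382 for OSKM B12. Peaks touching genes had 0.445, 0.464, 0.432 and 0.471 in the same order. Before scaling, the median far peak was 11.2 to 11.7 fragments deep, not far above the lowest pileup of any peak, which was 8 fragments in 3 lists and 9 in OSKM. OSKM held the shortest far peaks, of which 77.6% (281 of 362) were under 500 bases, against 59.9% in MEF, 54.9% in MEF B12 and 52.1% in OSKM B12. Among peaks touching genes the OSKM list also had the largest share under 500 bases, 28.5% against 23.1% to 23.4%.

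Most far regions belonged to a single library. A region counted as present in a list when any peak of that list shared at least 1 base with it, and by that count 710 of 917 (77.4%, interval 74.6 to 80.1) were in 1 list only. The peak need not itself be far: 46 regions were held by at least 1 list only through a peak reaching within 5 kb of a gene (24 for MEF, 27 for MEF B12, 3 for OSKM and 21 for OSKM B12). Over all merged regions that share was 39.2%. In the other direction, 58 far regions (6.32%, 4.84 to 8.10) were in all 4 lists, whereas 30.4% of all merged regions were. A further 82 were in 2 lists and 67 in 3. Length moved with this difference. Under 500 bases, where 627 of the far regions fell, 95.9% were in a single list against 93.4% of all regions of that length. From 1000 up to 2000 bases, 36.7% (29 of 79) were in all 4 lists against 26.5%, and from 2000 bases upward 77.3% (17 of 22) against 87.0%.

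**Figure D1:**
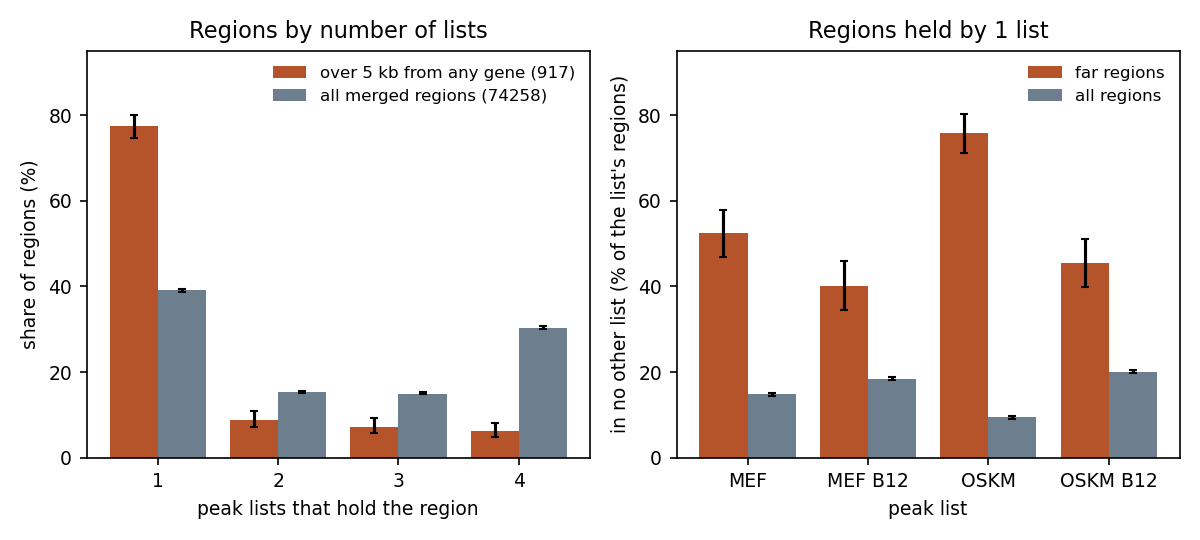
Share of regions (%) by the number of peak lists that hold them, left, and share of each list's regions found in no other list, right, for far regions and for all merged regions. Bars give the share and lines the exact 95% binomial interval. 77.4% of far regions were in 1 list against 39.2% of all regions, and the share found in no other list was highest in OSKM (75.8%), where it was 9.50% for all regions.

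The OSKM list contributed the most regions of its own. Regions present only in OSKM numbered 270 (29.4% of the far regions), against a background of 3.64% over all merged regions. Regions present only in MEF were 177 (19.3%, background 9.04%), only in MEF B12 117 (12.8%, background 12.5%) and only in OSKM B12 146 (15.9%, background 14.0%). Read within a list, 75.8% of the far regions of OSKM were in no other list, compared with 52.4% in MEF, 40.1% in MEF B12 and 45.5% in OSKM B12. Over regions of any kind OSKM had the lowest share, 9.50%, and the others lay between 14.8% and 20.1%. Thus the library with the fewest regions of its own genome-wide had the most of its own far from genes.

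Where regions recurred, OSKM was the list that held the fewest. Of the 207 far regions in at least 2 lists, MEF held 161 (77.8%), MEF B12 and OSKM B12 each 175 (84.5%), and OSKM 86 (41.5%). Over recurrent regions of any kind OSKM also held the fewest, 56.9%, against 85.4% for MEF, 90.9% for MEF B12 and 91.4% for OSKM B12. The most frequent combination after all 4 lists was MEF, MEF B12 and OSKM B12 without OSKM, with 50 regions. MEF B12 and OSKM B12 alone shared 33, while OSKM and OSKM B12 alone shared 6. In pairs, MEF B12 and OSKM B12 shared 146 far regions, 45.5% of the 321 in OSKM B12 and the same number out of 292 in MEF B12. OSKM shared 73 regions with each of the other lists, 20.5% of its 356, against 21.6% of the 338 in MEF, 22.7% of the 321 in OSKM B12 and 73 out of 292 in MEF B12. Of OSKM regions of any kind, 83.5% were in MEF, 85.5% in MEF B12 and 86.6% in OSKM B12, and 72.5% of OSKM B12 regions of any kind were in MEF B12.

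Distance from genes separated the recurrent regions from the rest. The median distance to the nearest gene was 11.8 kb for regions of 1 list, 6.55 kb for those of 2 or 3 lists and 5.92 kb for those of all 4. The territory more than 5 kb from every gene covers 983 Mb, 41.0% of the sequenced bases of these chromosomes. Between 5 and 10 kb from a gene there were 2.91 far regions per Mb of that territory, between 10 and 20 kb 0.981, and beyond 100 kb 0.261. Regions of all 4 lists fell from 0.314 per Mb at 5 to 10 kb to 0.0244 at 10 to 20 kb, and none lay beyond 50 kb. All 38 regions beyond 100 kb were in a single list, and 28 of them were in OSKM. The members closest to the limit lay 5004 bases from Tbc1d20, 5007 from Gm35202 and 5010 from Smarca4, with scaled pileups of 0.431, 0.345 and 0.441. Just inside it were peaks 4999 bases from Trim24, 4993 from Dnajc21 and 4991 from Atxn10, with scaled pileups of 0.417, 0.454 and 0.449.

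**Figure D2:**
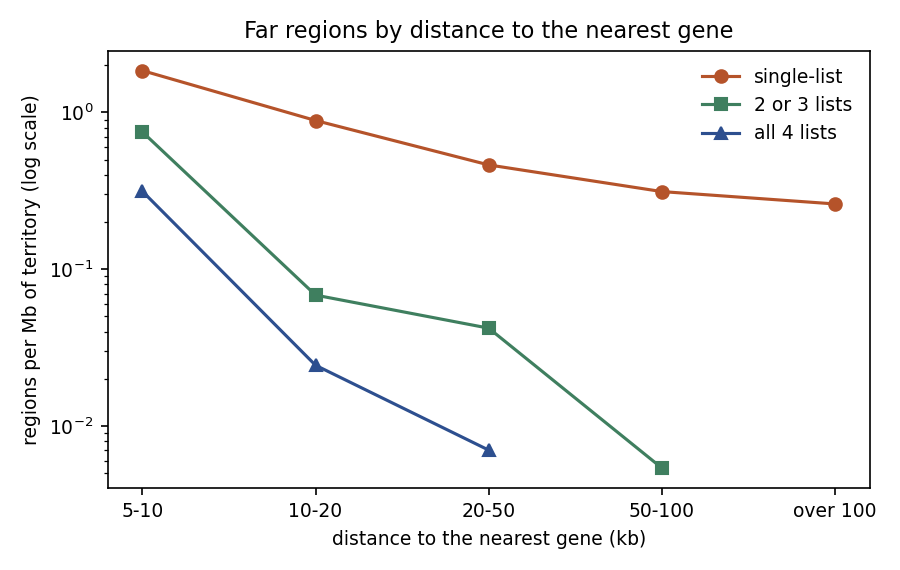
Far regions per Mb of territory (log scale) against the distance to the nearest gene (kb), for regions of 1 list, of 2 or 3 lists and of all 4 lists. Points at 0 are not drawn. Regions of 1 list declined from 1.85 to 0.261 per Mb, and those of all 4 lists from 0.314 to 0.00702 at 20 to 50 kb.

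Far regions lay more often behind a gene than in front of one. Of the 917, 641 (69.9%, 66.8 to 72.9) were on the downstream side of their nearest gene, past its 3′ end, whereas 51.2% of the territory's bases are nearest to a gene end. The share was 87.9% (51 of 58) for regions of all 4 lists and 85.2% (127 of 149) for those of 2 or 3 lists. Regions outside genes but within 5 kb had 91.0%. Where the nearest gene of a region of all 4 lists was protein-coding, the region was downstream of it in 42 of 44 cases. Among single-list regions, 71.2% of those in MEF, 76.9% in MEF B12 and 65.1% in OSKM B12 were downstream, with intervals above the territory's 51.2%. For OSKM the share was 56.3% (152 of 270), and its interval, 50.2 to 62.3, included 51.2%.

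**Figure D3:**
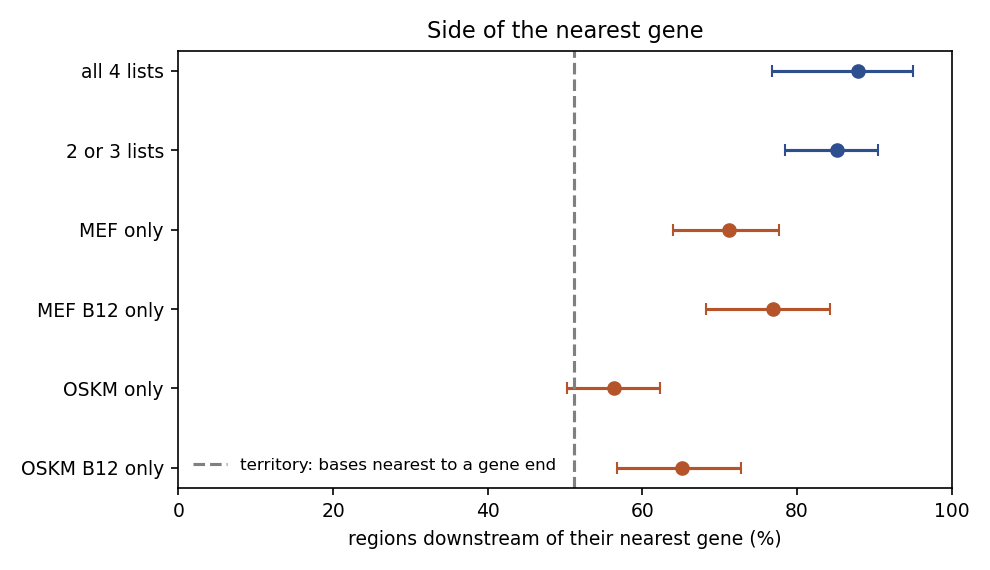
Share of far regions (%) on the downstream side of their nearest gene, for regions of all 4 lists, of 2 or 3 lists and of a single list. Points give the share, lines the exact 95% binomial interval and the dashed line the 51.2% of territory bases that are nearest to a gene end. OSKM-only regions had the lowest share, 56.3%.

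Peaks that led from a region back to a gene were counted as well. A region was called joined when peaks of the same list, each at most 5 kb from the next, formed a chain from it to an annotated gene. This held for 300 of 917 (32.7%), and for 20.6% of regions in 1 list, 69.1% in 2 or 3 lists and 87.9% (51 of 58) in all 4. These classes are not compared on equal terms. Chains were sought in each list holding a region, so regions of more lists had more ways to be joined. Regions nearer a gene needed shorter chains, and in 28 of the 58 a peak itself reached within 5 kb of a gene. Of the regions found only in OSKM, 9 of 270 (3.33%) were joined, against 22.6% for MEF, 39.3% for MEF B12 and 34.9% for OSKM B12. The coverage of the nearest gene was taken from the list, among those holding the region, in which it was highest. It was at least 10% of the gene's length for 81.0% (47 of 58) of the regions in all 4 lists. For the OSKM-only regions this was 13.0% (35 of 270). For MEF-only, MEF B12-only and OSKM B12-only regions this was 48.0%, 53.0% and 45.2%. Of all annotated genes, 18.8% to 24.4% per list had that coverage. The share for regions of all 4 lists takes the best of 4 lists, so only the single-list shares rest on 1 list as this background does. For the nearest protein-coding gene, the single-list shares were 61.6%, 70.1%, 31.9% and 57.5% (order MEF, MEF B12, OSKM, OSKM B12). Over all protein-coding genes they were 43.7%, 45.0%, 36.6% and 45.2%. Neither background was matched for genes that border wide gaps. OSKM-only regions also lay farther out, at a median of 20.3 kb, against 10.1, 9.02 and 9.01 kb for regions only in MEF, MEF B12 and OSKM B12. Their median -log10 q was 1.46, against 1.58 to 1.67 for the others.

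Some regions called far from GENCODE genes fell inside RefSeq gene models, which are longer at several loci. This was so for 166 of 917 regions (18.1%), while 8.81% of the territory's bases lie in a RefSeq gene. For regions of all 4 lists it was 20.7% (12 of 58), and for OSKM-only regions 12.6% (34 of 270). In base composition the classes resembled each other. The median G+C content was 46.2% for all far regions, 46.3% for those of all 4 lists and 45.2% for regions touching genes, against 40.5% over the territory. The ratio of observed to expected CG dinucleotides had a median of 0.173, compared with 0.207 in regions touching genes. Soft-masked repeats took a median of 17.1% of a far region and 27.7% of the flanking stretches of the same length, and their share of the whole territory was 39.6%. The repeat share was lower inside than in the flanks in 585 of 917 regions (63.8%).

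The number of far regions and their covered length did not move together between libraries. MEF held 338 far regions, MEF B12 292, OSKM 356 and OSKM B12 321. Their bases in peaks came to 217, 218, 162 and 229 kb in the same order. OSKM thus had 1.05 times the number of MEF but 0.749 times its covered length, while over all merged regions the ratios were 0.628 and 0.610. The 0.628 counts merged regions, so several peaks of a list within 1 merged region count once. Counted as peaks, OSKM had 64364 and MEF 64885, of which 362 and 327 were far. From OSKM to OSKM B12 the number fell to 0.902 times and the covered length rose to 1.41 times, against 1.82 and 1.77 for all regions. MEF B12 had 0.864 times the number and 1.01 times the length of MEF, against 1.11 and 1.08. The covered-length ratios turned over with the distance limit. Beyond 20 kb, where OSKM covered 49.7 kb and no other list more than 25.6 kb, OSKM over MEF was 1.94 and OSKM B12 over OSKM 0.463. Restricted to the 207 regions of at least 2 lists, they were 0.430 and 2.67, and the part of weak single-list peaks in this difference was not tested.

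Over the 33.4 kb in a peak of all 4 lists, the mean scaled pileup was compared on the same positions. Each peak carries 1 deposited pileup value for its whole length, so a value still depends on where that peak's edges fall. It was 0.509 for MEF, 0.570 for MEF B12, 0.417 for OSKM and 0.617 for OSKM B12. The ratio of OSKM to MEF was 0.820, that of OSKM B12 to OSKM 1.48 and that of MEF B12 to MEF 1.12. The corresponding ratios over all merged regions were 0.754, 1.57 and 1.14. OSKM was lowest and OSKM B12 highest in both sets. Without division by tags the ratio of MEF B12 to MEF was 0.998. With the regions left out over which a peak reached within 5 kb of a gene, 12.9 kb remained and the ratios were 0.845 for OSKM to MEF, 1.29 for OSKM B12 to OSKM and 1.03 for MEF B12 to MEF.

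**Figure D4:**
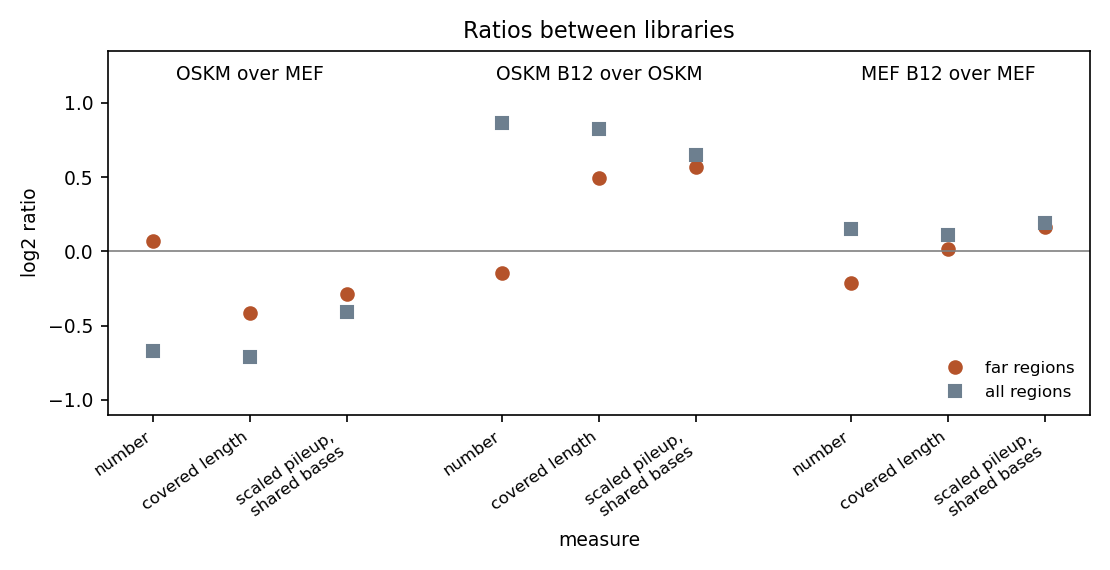
Log2 ratios between libraries of the number of regions present, their covered length and the scaled pileup over bases in a peak of all 4 lists, for far regions and all merged regions. Points are single values from 1 library per condition, without error bars. Far regions numbered 1.05 times as many in OSKM as in MEF, while over all merged regions the ratio was 0.628. The lists themselves held similar numbers of peaks, 64364 in OSKM and 64885 in MEF.

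Density, the scaled pileup averaged over a whole region with bases outside peaks counted as 0, gave a comparison for each region. On the log2(density + 0.05) scale, 281 of 917 far regions (30.6%) were lower by over 2-fold in OSKM than in MEF and 286 (31.2%) higher, against 40.5% and 6.39% of all merged regions. From OSKM to OSKM B12, 284 (31.0%) were lower and 274 (29.9%) higher, against 5.17% and 55.9%. From MEF to MEF B12, 206 (22.5%) were lower and 170 (18.5%) higher, against 14.6% and 23.9%. These counts largely restate presence. Of the 281 regions lower in OSKM, 263 had no OSKM peak, and of the 286 higher, 283 had no MEF peak. Among the 207 regions of at least 2 lists, 104 were lower and 16 higher in OSKM than in MEF, and 128 were higher and 14 lower in OSKM B12 than in OSKM. The same shares over recurrent regions of any kind are not given here. Over all merged regions the excess ran the same way in both comparisons, so the direction does not set recurrent far regions apart. The size of their excess has no matched background here.

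The 58 regions of all 4 lists were also compared one by one. Their median density was 0.332 for MEF, 0.403 for MEF B12, 0.191 for OSKM and 0.400 for OSKM B12. Density was lower in OSKM than in MEF in 48 and higher in 10, with a median log2 difference of -0.70. Set against OSKM, OSKM B12 had the higher density in 56 and the lower in 2, with a median of 0.91. Between MEF and MEF B12 it was higher with vitamin B12 in 42 and lower in 16, with a median of 0.23. The same counts over regions of any kind in all 4 lists are not given here. Over shared bases of all merged regions, the scaled pileup ratios were 0.754, 1.57 and 1.14 for these comparisons. The directions are therefore not particular to far regions. In 30 of the 58 every peak over the region was far, and among these OSKM was below MEF in 24, OSKM B12 above OSKM in 30 and MEF B12 above MEF in 21. In 10 of the 58, a peak of some list also lay over another far region, so their values are not separate measurements. These regions were 1584 bases long at the median and held 42.7% of the summed signal of all far regions, against 28.3% in the 710 regions of a single list. In 48 of 58, both the region's density and the share of the nearest protein-coding gene in peaks rose from OSKM to OSKM B12 in value. In 35 of 58, both were lower for OSKM than for MEF. The gene alone was covered less in OSKM than in MEF in 44 of 58. It was covered less in OSKM B12 than in OSKM in 1 of 58. With each shift this common singly, the joint counts do not show that regions followed their genes.

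**Figure D5:**
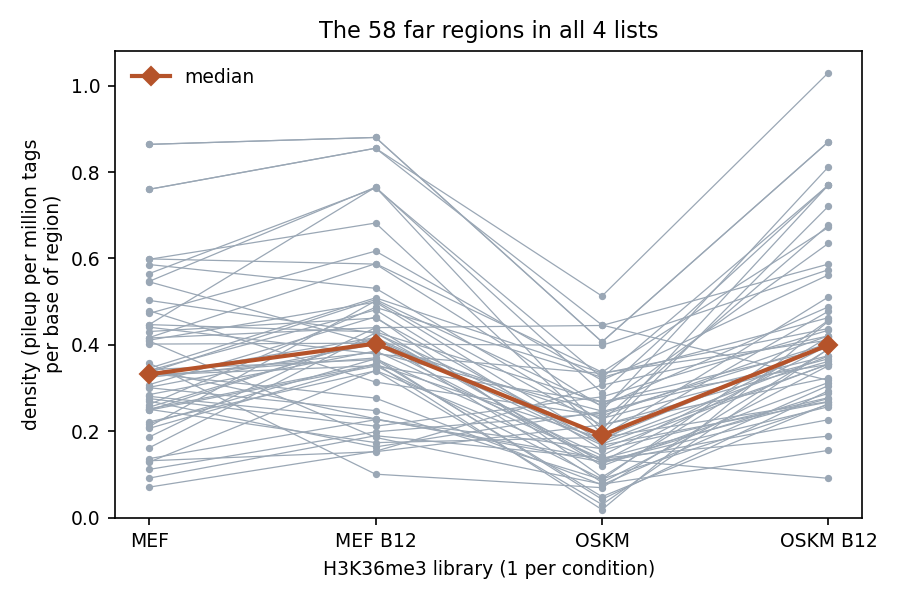
Density (scaled pileup per base of region) of the 58 far regions in all 4 lists, in each H3K36me3 library. Each grey line is a region and the thick line joins the medians, 0.332, 0.403, 0.191 and 0.400. Most lines dip in OSKM.

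Most of the strongest far regions lay past the 3′ end of a gene. The first of them was chr16:3756443-3760095, 5652 bases past the end of Zfp263, a zinc finger transcription factor gene, inside the RefSeq lncRNA model Gm36195. Its density was 0.586 for MEF, 0.531 for MEF B12, 0.225 for OSKM and 0.677 for OSKM B12. The neighbouring region chr16:3760439-3764275 had 0.308, 0.465, 0.0941 and 0.419 in the same order. In MEF B12 a single peak of 8647 bases lay over both regions and reached within 5 kb of a gene. In both, OSKM was the lowest library, with 1609 and 941 bases in peaks against 3649 and 2664 for MEF.

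Dyrk1b, which encodes a protein kinase, had chr7:28192773-28194460 beyond its annotated end by 5478 bases, although the RefSeq model of the gene takes it in. All 1688 bases were in a peak in every list, with densities of 0.760, 0.855, 0.513 and 1.03 (order MEF, MEF B12, OSKM, OSKM B12). Only the OSKM peak ended at the region, since those of the other lists were 14003 to 14843 bases long and reached within 5 kb of a gene. The region's edges were therefore those of the OSKM peak, so its coverage from end to end by all 4 lists was set by how it was drawn. No bases outside peaks lowered its density, which was the highest of the 11 strongest regions described. Behind Ctnnd1, the gene of the adhesion protein p120 catenin, chr2:84589717-84594648 was longer and shallower, at 0.343, 0.366, 0.0490 and 0.264. There the covered bases numbered 3668 in MEF, 654 in OSKM and 2258 in OSKM B12, and this region too lies within the longer RefSeq model.

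A group of 4 regions, each in all 4 lists, filled chr6:31069113-31077158 between the lncRNA genes Lncpint and Gm27019, both on the minus strand. The group began 5.41 kb past the end of Lncpint, a long non-coding RNA induced by p53, and stopped 5.62 kb short of Gm27019. The region nearest Gm27019 had a density of 0.547 for MEF, 0.765 for MEF B12, 0.289 for OSKM and 0.770 for OSKM B12. The one nearer Lncpint, chr6:31073294-31075101, had 0.565, 0.763, 0.324 and 0.770. The values with vitamin B12 are not separate for these regions, because 1 peak of 20514 bases in MEF B12 and 1 of 20808 bases in OSKM B12 lay over both and reached within 5 kb of a gene. At the region nearest Gm27019, the OSKM value also rested on a peak that was not far. The density was higher with vitamin B12 in either background, with log2 differences of 0.45 and 0.40 in MEF and 1.27 and 1.13 in OSKM. No RefSeq gene overlapped the group.

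The remaining strong regions are given by their nearest gene, and the mark was not traced to it. The groups holding those past Itm2b, Cdc42 and Klrg2 also began 12.2 kb past Gm49131, 6.86 kb past Wnt4 and 5.18 kb past Luc7l2. Past Itm2b, which encodes an integral membrane protein, chr14:73350121-73354007 had densities of 0.302, 0.402, 0.130 and 0.399 (order MEF, MEF B12, OSKM, OSKM B12), the last from a peak of 22065 bases that was not far. Past Cdc42, which encodes a small GTPase, chr4:137309461-137312475 had 0.402, 0.404, 0.230 and 0.368. Past Atp6v1c1, a subunit of the vacuolar proton pump, chr15:38698626-38701579 had 0.336, 0.505, 0.259 and 0.488, with a MEF B12 peak there that was not far. The regions past Klrg2 (chr6:38617519-38620578, inside the RefSeq model of that gene) and Gpr180 (chr14:118168554-118171877) fell to 0.177 and 0.171 in OSKM from 0.411 and 0.431 in MEF. In all 11 strong regions the OSKM library was the lowest of the 4.

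Among far regions of at least 1 kb, the largest falls from MEF to OSKM were losses of the whole call. Beyond Zfp655, another zinc finger gene, chr5:145252799-145253924 had 0.448 in MEF, 0.703 in MEF B12, no peak in OSKM and 0.482 in OSKM B12. The MEF and MEF B12 peaks there, of 2702 and 20557 bases, reached within 5 kb of a gene. Beyond the lncRNA gene D930016D06Rik, chr5:104581730-104584506 had 0.404, 0.451, no peak and 0.475, and it lies in the RefSeq model of the zinc finger gene Zfp33b. Beyond Pelp1, a coregulator of steroid receptors, chr11:70385023-70386465 had 0.424, 0.165, no peak and 0.351. Beyond Lrig3, chr10:126020538-126022479 had 0.404, 0.315, no peak and 0.364. All 4 regions were called in OSKM B12. The regions beyond Zfp655 and D930016D06Rik were also among the 4 largest rises from OSKM to OSKM B12, beside those past Smc5, of the SMC5/6 chromosome complex, and Gcc2, a golgin, at 0.456 and 0.425.

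The largest rises from MEF to OSKM, again among regions of at least 1 kb, reached lower levels. Past Rnf4, a ubiquitin ligase directed at SUMO-modified proteins, chr5:34360938-34362731 had 0.0710 for MEF, 0.154 for MEF B12, 0.307 for OSKM and 0.421 for OSKM B12. Past Smurf1, a ubiquitin ligase of the BMP pathway, chr5:144868686-144870578 had no peak in MEF, then 0.252, 0.155 and 0.122. Past Klf9, a Krüppel-like transcription factor gene, chr19:23184449-23185462 had no peak in MEF or OSKM B12, 0.213 in MEF B12 and 0.272 in OSKM. Near Pstpip1, chr9:56078423-56080096 had no peak in MEF, then 0.354, 0.136 and 0.284. Among regions of at least 1 kb, the one past Klf9 was also the largest fall from OSKM to OSKM B12. The other 3 falls were at Rcn2, Ect2 and Lims1, where OSKM had densities of 0.154, 0.139 and 0.0836 and OSKM B12 had no peak.

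Between MEF and MEF B12, the largest changes among regions of at least 1 kb were losses and gains of single calls. Past Lhfpl4, chr6:113161190-113162235 had 0.403 in MEF and no peak in the other 3 lists. Its group also began 5.59 kb past Setd5. Past Papola, the nuclear poly(A) polymerase gene, chr12:105847235-105848539 had 0.342 in MEF, no peak in MEF B12 or OSKM, and 0.231 in OSKM B12. The regions past Olfr1319-ps1 and Pja2 also had no peak in MEF B12, with 0.256 and 0.179 in MEF. Past Irgm2, an interferon-induced GTPase gene, chr11:58229904-58231317 had no peak in MEF or OSKM, 0.369 in MEF B12 and 0.258 in OSKM B12. Past Polr3k, a subunit of RNA polymerase III, chr2:181875970-181877289 had 0.326 in MEF B12 and 0.224 in OSKM B12, again with no peak in MEF or OSKM. The regions near Gm24327 and Pstpip1 had no peak in MEF and 0.296 and 0.354 in MEF B12.

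Far regions also clustered. Of the 917, 279 lay in 105 groups whose members were at most 5 kb apart. The most populous was a run of 11 regions over 19.4 kb (chr2:168028293-168047661) inside the RefSeq model of Ripor3, between the GENCODE genes Gm14236 and Gm24327. Its covered length was 3.96 kb for MEF, 6.46 kb for MEF B12, none for OSKM and 5.68 kb for OSKM B12. Between Rcn2, which encodes a calcium-binding protein of the endoplasmic reticulum, and Pstpip1, 9 regions held 1.95, 5.23, 1.72 and 4.22 kb in the same order. Between Klf9 and Smc5, 8 regions held 3.67, 3.48, 1.83 and 2.16 kb. OSKM had the least covered length in each of these groups.

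At the far end of the distance scale, 3 regions of all 4 lists are described. The farthest, chr17:17204560-17206172, lay 28.7 kb from the lncRNA gene Gm5165 and inside the RefSeq gene Gm38396, with densities of 0.599, 0.587, 0.257 and 0.635 (order MEF, MEF B12, OSKM, OSKM B12). The next, chr16:13759500-13760417, lay 20028 bases past Pla2g10os and 20.3 kb from Rrn3, an initiation factor of RNA polymerase I, with 0.343, 0.229, 0.129 and 0.227. Its middle is the tandem run of ctatacagtatg shown above. The other, chr1:73894854-73895747, lay 14.5 kb past Tns1, a focal adhesion protein gene, with 0.187 for MEF and 0.440 for MEF B12, 323 covered bases in OSKM, and 0.313 for OSKM B12.

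Raised input was less frequent under far peaks than under peaks touching genes. The input level under a peak, recovered from its pileup and fold enrichment and expressed against the lowest level in its list, exceeded 2 times the lowest for 0.829% to 4.10% of far peaks per list and for 5.37% to 6.39% of peaks touching genes. It did so in at least 1 list in 28 of 917 far regions (3.05%). It did so for 10 of the 58 regions in all 4 lists (17.2%) and 8 of the 710 in a single list (1.13%). These shares are not on equal terms, since a region of more lists had more peaks that could pass the level. The highest value, 13.6 times, was at chr3:5860442-5860925 near Gm37350, which was called in OSKM alone with a density of 2.40. The next, 4.98 times, was at chr2:22744630-22745115 near 1700092C17Rik, again in OSKM alone, at 0.900. The part of the raised input in these calls was not tested. The highest among recurrent regions, 2.75 times, was at chr1:45364779-45366288, 8.03 kb past Col5a2, a fibrillar collagen gene of fibroblasts, with densities of 0.598, 0.682, 0.195 and 0.721.

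Marker genes of fibroblasts carried the mark in every library. All 8 fibroblast marker genes examined had at least 10% of their length in peaks in every list, with medians of 84.8% for MEF, 86.1% for MEF B12, 70.2% for OSKM and 84.8% for OSKM B12. None of the 6 pluripotency, 4 epithelial or 3 endothelial markers reached that coverage in any list. Of the 3 blood markers, Cd68 did in every list and Laptm5 in every list but OSKM, while Ptprc, the leukocyte antigen CD45, had no peak in any list. Of the 3 neural markers, Tubb3 did in every list but OSKM, and Sox1 had no peak.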

How the data were processed

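H3K36me3 ChIP-seq was deposited for 4 conditions with 1 ChIP and 1 input library each. Reads were mapped by the authors to mm10 using Bowtie 0.12.9, and they called broad peaks per ChIP library against its own input with MACS2 2.2.6 (per the file headers, q-value cut-offs 0.05 and 0.1 for broad regions). The headers give an effective genome size of 3210000000, and the effect of this setting on weak calls was not tested. The deposited values used were the pileup (a signal in fragments), -log10 p-value and q-value, and fold enrichment (a ratio) of each peak.

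Here pileup was scaled to 1000000 H3K36me3 tags. Density changes used a pseudocount of 0.05 and a 2-fold limit. Because bases outside peaks count as 0, loss of a peak passes that limit wherever the density before was over 0.05. The territory was sequenced bases of GRCm38.p6 over 5 kb from GENCODE M21 genes. RefSeq models came from the same assembly. Overlap arithmetic (Python 3.11.15, NumPy 2.4.6, SciPy 1.17.1) was checked against brute force on simulated data. Members and lists were chosen with earlier results of these data known. Regions described singly were the 12 strongest (1, on chromosome 18, is not reported here), among those of at least 1 kb the 4 largest falls and 4 largest rises in density for each comparison, the 3 farthest from a gene in all 4 lists, the 3 with the highest input level, and those nearest the 5 kb limit. Alternatives changed the distance limit, gene types, peak thresholds, merging, presence rule, pseudocount and scaling. The doxycycline concentration is that of the sample labels, and the methods text of the study states another unit for it.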

Additional observations from a re-analysis of the deposited data

Results flagged for a closer look

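For 2 of 3 measures of far regions, the ratio of doxycycline to none lay on opposite sides of 1 without and with vitamin B12. The covered length of far regions in OSKM was 0.749 times that in MEF, while in OSKM B12 it was 1.05 times that in MEF B12. At the 20 kb limit the former was 1.94. Over all regions the ratios were 0.610 and 1.000. For scaled pileup over shared bases, the ratio of OSKM to MEF was 0.820 and that of OSKM B12 to MEF B12 was 1.08, against 0.754 and 1.04 over all regions. The number of far regions was higher with doxycycline in both, by ratios of 1.05 and 1.10. The difference between these ratios was not tested, since each condition had 1 library.

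Peaks more than 5 kb from any gene also occurred on the sex chromosomes, which entered none of the comparisons. On chromosome X MEF had 20, MEF B12 19, OSKM 4 and OSKM B12 16 such peaks. On chromosome Y the counts were 5, 5, 1 and 4 in that order. The OSKM list was also the smallest for peaks of any kind there, with 1080 on X and 29 on Y, against 2112 to 2220 and 74 to 81 in the other lists. Chromosomes 1 to 19 differed from this. There OSKM had 64364 peaks against 64885 in MEF, and the most far peaks of any list, 362.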

How the results depend on the processing

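No paired analysis was possible because no condition had more than 1 library. Of 119 values under the alternatives, 69 stayed within their counting range or, for the number of regions, within 1.5 times 917, 47 moved further and 3 reversed. The number of far regions was 2488 at a limit of 2 kb, 243 at 20 kb, 2156 with protein-coding genes only, 87 with -log10 q of at least 3 and 207 for regions of at least 2 lists, a restriction chosen after seeing the data. The downstream share under those 5 settings was 80.9%, 58.0%, 55.3%, 83.9% and 86.0%, and without the OSKM list, also chosen afterwards, 75.4%. Leaving that list out gave 641 far regions, joining those up to 1 kb apart gave 813, and merging all peaks first gave 861. The share in all 4 lists was 14.2% at 2 kb, 0.823% at 20 kb, 12.1% with protein-coding genes, 3.48% when all peaks were merged first and 2.07% when presence needed 50% of the region. Covered length of OSKM over MEF was 0.556 at 2 kb, reversed to 1.94 at 20 kb, and was 0.576 with protein-coding genes, 0.154 at the stricter q and 0.430 in at least 2 lists. OSKM B12 over OSKM was 2.03, reversed to 0.463, and was 1.91, 7.87 and 2.67 in that order, and MEF B12 over MEF was 0.779 at 20 kb. Pileup over shared bases of OSKM over MEF was 0.747 at 2 kb and 0.761 with protein-coding genes. For OSKM B12 over OSKM it was 1.59 at 2 kb, 1.21 at 20 kb, 1.29 with peaks merged first and 1.31 without division by tags, and for MEF B12 over MEF 1.03 with peaks merged first and, reversed, 0.998 without division by tags. The share of lower regions among those past 2-fold, 49.6% from MEF to OSKM, 50.9% from OSKM to OSKM B12 and 54.8% from MEF to MEF B12, became 66.3%, 28.3% and 45.4% at 2 kb. At 20 kb it was 28.6%, 78.2% and 64.9%. With protein-coding genes it was 63.5%, 33.1% and 48.3%, at the stricter q 88.1%, 7.55% and 43.2%, and in at least 2 lists 86.7%, 9.86% and 35.4%. The cause was not tested. The median far peak held about 11 fragments, which limits what single-list calls can show.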
